A study of Mus musculus with 4 samples.

Results

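The Klrb1 genes of the mouse encode the NKR-P1 lectin-like receptors, and the Clec2 genes interspersed with them encode their Clr ligands. Levels of 7 of these genes were examined in CCR6+ group 3 innate lymphoid cells (ILC3), 5 receptor genes (Klrb1, Klrb1a, Klrb1b, Klrb1c and Klrb1f) and 2 ligand genes (Clec2d and Clec2i), out of 19938 genes named on the arrays. A gene entered through a probe set whose platform annotation names that gene alone, and each of the 7 had 1 such probe set. The 7 genes were chosen by their mean log2 levels on these same arrays, on which Klrb1b and Klrb1f stood out as high, so their levels are a description and carry no test. The data came from 4 microarrays, numbered 1 to 4, of total RNA from mesenteric lymph node cells of C57BL/6 mice that were naive, sorted as CD127+ CD90.2+ CCR6+ ST2-. All 4 samples belong to this group, no other cell type or treatment was analysed here, and whether each sample was its own animal, pool or sort is not stated in the labels. Values are log2 levels per probe set.

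NKR-P1 receptors are type II membrane proteins with a C-type lectin-like domain, encoded in the natural killer (NK) gene complex on mouse chromosome 6 and first studied on NK cells. Some of them inhibit the cell and others activate it, and their ligands are lectin-like proteins from the same stretch of chromosome. NKR-P1B, from Klrb1b, is an inhibitory receptor that binds Clr-b, from Clec2d, and it has been described on ILC3 of the mouse gut. The C57BL/6 form of Klrb1b has also been called Klrb1d, and the RefSeq table lists both names for the gene. NKR-P1F, from Klrb1f, binds Clr-g, from Clec2i. NK1.1, from Klrb1c, is the classical NK cell antigen of C57BL/6 mice.

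The upstream sequences of 4 receptor genes are shown because they form pairs by their place against the background genes described below, of which none reached Klrb1b or Klrb1f while a few reached Klrb1c and Klrb1a. They are the 250 bases before the annotated gene start, from RefSeq (GRCm38.p6), all on chromosome 6, read on the strand of the gene. Klrb1b lies on the minus strand at chr6:128826316-128826565 and Klrb1f on the plus strand at chr6:129045651-129045900, and capitals mark the longest run of bases that these 2 share. Klrb1c lies on the minus strand at chr6:128788642-128788891 and Klrb1a on the minus strand at chr6:128622935-128623184, and capitals mark the longest run shared by this second pair.
Klrb1b: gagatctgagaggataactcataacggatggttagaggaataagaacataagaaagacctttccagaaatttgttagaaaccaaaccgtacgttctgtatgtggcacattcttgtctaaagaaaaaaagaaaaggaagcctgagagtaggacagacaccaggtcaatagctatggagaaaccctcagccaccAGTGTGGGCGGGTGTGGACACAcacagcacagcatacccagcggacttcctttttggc
Klrb1f: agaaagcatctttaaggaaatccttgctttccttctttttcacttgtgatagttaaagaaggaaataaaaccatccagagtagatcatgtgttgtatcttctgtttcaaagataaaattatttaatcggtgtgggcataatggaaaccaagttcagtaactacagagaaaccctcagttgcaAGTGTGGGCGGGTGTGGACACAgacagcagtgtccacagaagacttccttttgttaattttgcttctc
Klrb1c: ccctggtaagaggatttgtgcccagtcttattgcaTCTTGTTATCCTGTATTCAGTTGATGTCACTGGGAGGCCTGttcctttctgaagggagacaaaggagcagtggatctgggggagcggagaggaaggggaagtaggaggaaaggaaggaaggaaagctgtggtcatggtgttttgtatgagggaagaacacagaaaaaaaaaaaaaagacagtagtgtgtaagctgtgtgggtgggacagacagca
Klrb1a: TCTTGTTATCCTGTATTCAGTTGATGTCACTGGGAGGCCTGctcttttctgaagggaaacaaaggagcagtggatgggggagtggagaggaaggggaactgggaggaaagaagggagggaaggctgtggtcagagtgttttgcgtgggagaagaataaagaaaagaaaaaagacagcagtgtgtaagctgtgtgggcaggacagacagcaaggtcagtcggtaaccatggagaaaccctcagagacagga
The run of Klrb1b and Klrb1f was 22 bases long and began 58 bases before the start of Klrb1b and 68 bases before that of Klrb1f. Of 32851 upstream windows in the RefSeq table, 3 held it on either strand (0.00913%), and they belonged to Klrb1b, which has more than 1 annotated start, and Klrb1f. The run of Klrb1a and Klrb1c was 41 bases long and was held by 2 windows, those of Klrb1a and Klrb1c. Over all 21 pairs of the 7 genes, the longest shared run had a median of 9 bases and the aligned identity ranged from 40.1% to 64.8%. The highest identity was that of Klrb1a with Klrb1c, while Klrb1b with Klrb1f reached 52.6% and Klrb1 with Klrb1b and with Klrb1f 55.8% and 55.5%. Klrb1 genes are paralogues, so related upstream sequence comes with the family. Beyond this run, 4 short motifs were searched on both strands of the same windows. AGGTCA, the core site of ROR nuclear receptors, was found in Klrb1a, Klrb1b and Clec2d, and in 14.02% of all windows. TGTGGT, a RUNX site, was found in Klrb1a and Klrb1c, and in 14.05% of all windows. GGGCGG, a GC box, lay within the run shared by Klrb1b and Klrb1f and was also found in Clec2i, and in 32.7% of all windows. TGANTCA, an AP-1 site, was found in 0 of the 7 genes and in 6.75% of all windows. These matches describe letters in the windows and are no evidence of binding.

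The receptor genes above every background gene were examined first. Klrb1b was at 12.08, 12.08, 11.97 and 12.07 log2 units on arrays 1 to 4, a mean of 12.05 ± 0.052 (SD, n = 4, as for all means that follow). Its values were close together, with array 3 slightly below the others. Klrb1f was at 11.32, 11.29, 11.07 and 11.24 on the same arrays, a mean of 11.23 ± 0.11, and was likewise lowest on array 3. Both genes ran in the same order over the arrays, highest on array 1, then 2, then 4, then 3.

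Klrb1c and Klrb1a were above most, but not all, background genes. Klrb1c was at 7.97, 8.09, 8.01 and 8.005 on arrays 1 to 4, a mean of 8.02 ± 0.049, and was nearly level over the arrays. Klrb1a, which encodes NKR-P1A, was at 8.32, 7.24, 7.27 and 7.65, a mean of 7.62 ± 0.50. Array 1 stood above the others for Klrb1a, and without it the mean was 7.39 and the SD 0.23. Klrb1, which encodes NKR-P1G, an inhibitory receptor, was at 4.41, 4.23, 4.63 and 4.35, a mean of 4.41 ± 0.17.

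Both ligand genes had a mean above that of every background gene. On its highest array, 1 background gene was at or above the lowest value of Clec2i. Clec2d was at 11.23, 10.803, 10.705 and 11.12 on arrays 1 to 4, a mean of 10.96 ± 0.25, with arrays 1 and 4 above arrays 2 and 3. Clec2i was at 10.41, 10.53, 10.49 and 10.04, a mean of 10.37 ± 0.22, with array 4 below the others. The genes of 2 known receptor and ligand pairs, Klrb1b with Clec2d and Klrb1f with Clec2i, were all above every background gene by mean. Those of a further pair, Klrb1 with Clec2h, were not: their means were 4.41 and 6.12, and 507 and 40 background genes were at or above them. In bulk RNA it cannot be told whether the same cells carried both partners, nor can fewer cells of a type be told apart from less RNA per cell.

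**Figure D1:**
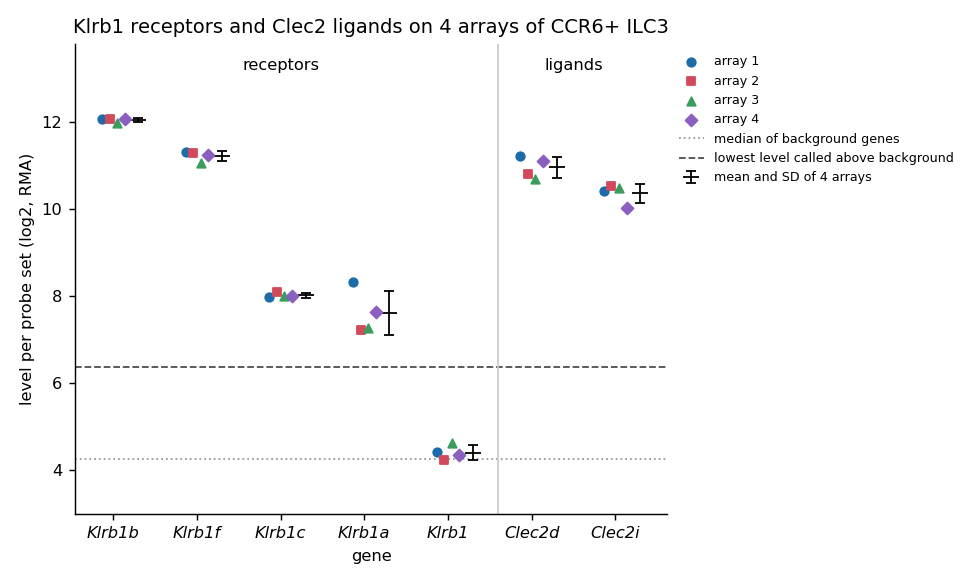
Log2 level per probe set of each receptor and ligand gene (x axis) on the 4 arrays (symbols), with the mean and SD beside them; the dotted line is the median of the background genes (4.25) and the dashed line the lowest mean called above background (6.37). Klrb1b, Klrb1f, Clec2d and Clec2i sit above 10 on every array, Klrb1c and Klrb1a between 7.24 and 8.32, and Klrb1 near the dotted line.

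Since binding strength varies among probe sets, a level is no amount of RNA relative to another gene, and each gene was read by its rank among genes that lymphocytes are not known to use. This background was 1241 receptor genes of smell and taste (the Olfr, Vmn1r, Vmn2r, Taar and Tas2r families), with a median of 4.25, a 95th percentile of 5.82 and a highest mean of 9.14. A gene was called above background when its rank among them gave a detection p under 0.05 after Benjamini-Hochberg adjustment over all named genes. Of the 7 receptor and ligand genes 6 were called, against 46.2% of all named genes, and since levels chose these genes nothing is read from that count. The median of their means was 10.37, beside 6.16 for all named genes.

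None of the 1241 background genes reached the mean of Klrb1b, Klrb1f, Clec2d or Clec2i. For Klrb1c, 3 background genes had a mean at or above its own, for Klrb1a 4, and for Klrb1 507, which placed Klrb1 well inside the background, and it was not called. A stricter reading used 15 genes of other organs, of which 5 were called, the highest being the skin keratin gene Krt10 at 7.77 ± 1.03, with 9.32 on array 3. On every array, 4 of the 7 genes (Klrb1b, Klrb1f, Clec2d and Clec2i) lay above the highest value of all those genes, as did 4.93% of all named genes. Klrb1c and Klrb1a did not, so their calls rest on the looser of these readings. The bar of 9.32 was a single value, and the next highest of the 15 genes was 7.42, for Ckm on array 1. The lowest value of Klrb1c, 7.97, lay above 7.42, and that of Klrb1a, 7.24, did not.

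The neighbours of the genes on the chromosome were then examined, because receptor and ligand genes are interspersed there. From Klrb1a to Clec2d the RefSeq order holds 27 genes, of which 12 were measured by a probe set of their own, the 7 genes above and 5 others. Of the 5 others 0 were called, beside 46.2% of all named genes. Levels chose the 7 genes and may have left lower ones among the others, so nothing is read from this count. Between Klrb1a and Klrb1 stood the pseudogene Clec2j at 5.52 ± 0.17 and Clec2h, which encodes Clr-f, a ligand of NKR-P1G, at 6.12 ± 0.086. Clec2g, between Clec2i and Klrb1f, was at 5.04 ± 0.085. Clec2e, which encodes Clr-a, and the pseudogene Klrb1-ps1 stood between Klrb1f and Clec2d, at 4.27 ± 0.067 and 4.98 ± 0.15. The genes called did not form an unbroken stretch, and the measured neighbours of Klrb1f on both sides, Clec2g and Clec2e, were not called.

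**Figure D2:**
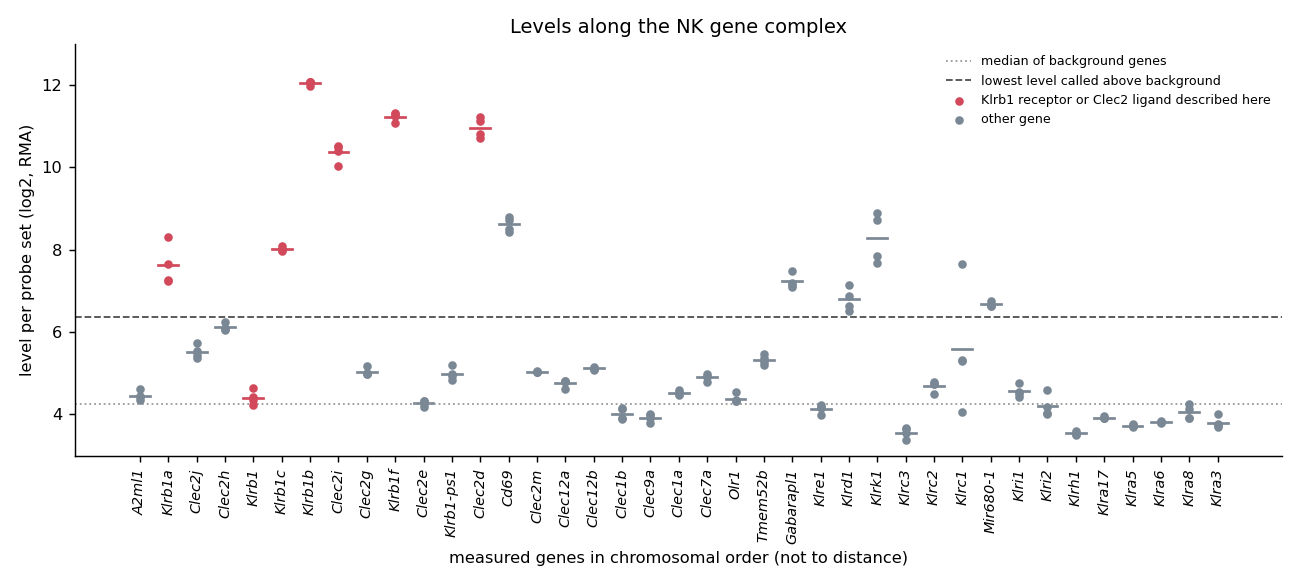
Log2 level per probe set (y axis) of the measured genes from A2ml1 to Klra3 in their RefSeq order on chromosome 6 (x axis, order only), with a point per array and a bar at the mean; red marks the 7 receptor and ligand genes. Called and uncalled genes are interspersed between Klrb1a and Clec2d, and most genes beyond Cd69 lie below the dashed line (6.37), the lowest mean called.

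Other genes of both families gave no call. Of 8 further Clec2 and Klrb1 genes 7 were measured, among them the 5 neighbours given above. Of these 7, 0 were called by the detection test, which called 46.2% of all named genes. Levels chose the receptor and ligand genes and may have left lower ones in this list, so nothing is read from this count. At an unadjusted p under 0.05 there were 2, Clec2h and Clec2l, with adjusted detection p of 0.0649 and 0.0754 from the same rank test fitted across all genes. Clec2h was at 6.25, 6.11, 6.05 and 6.08 on arrays 1 to 4, and limma's test and the 95th percentile of background each called it and no other gene of this list. Clec2l, at 5.95 ± 0.29, lies apart from the complex, and Clec2m was at 5.03 ± 0.018.

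Lectin receptor genes in the rest of the NK complex were mostly at background. Of 29 listed genes, which include Klrg1 and Klra2 from outside the stretch drawn, 24 were measured and 3 were called, a share of 12.5% beside 46.2% of all named genes, and their median level was 4.30. Cd69, an early activation antigen encoded next to Clec2d, was at 8.44, 8.79, 8.72 and 8.51 on arrays 1 to 4. Klrk1, which encodes NKG2D, was at 8.89, 7.67, 8.72 and 7.86, with arrays 1 and 3 above the others, and Klrd1, which encodes CD94, was at 6.79 ± 0.28.

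Klrc1, which encodes NKG2A, the partner of CD94, was not called and was at 5.29, 7.66, 5.32 and 4.07, with array 2 far above the rest. Klrg1 at 5.15 ± 0.13, Clec12b at 5.12 ± 0.024 and Clec7a, which encodes the glucan receptor dectin-1, at 4.90 ± 0.080 were not called. Klra genes encode Ly49 receptors. The 6 Klra genes with a probe set of their own in this list had means between 3.73 and 4.05, below the background median. The 4 probe sets that carry several Klra names at once were at 3.68 to 3.78.

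Genes that carry the signal of these receptors inside the cell were next examined. Of 16 listed partners 15 were measured and 14 were called, 93.3% beside 46.2% of all named genes, with a median of 8.94 beside 6.16. Plcg1, which encodes a phospholipase, was at 6.30 ± 0.17 and was not called. Fcer1g, the FcR gamma chain through which NK1.1 signals, was at 12.09, 12.18, 11.94 and 12.10 on arrays 1 to 4. It was among the steadier genes of the list over the arrays, with an SD of 0.0995. Tyrobp, which encodes the adaptor DAP12, was at 10.07, 10.97, 10.57 and 10.83, with array 1 below the others. Hcst, which encodes DAP10, the adaptor of NKG2D, was at 10.96 ± 0.067.

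Further downstream, the adaptor genes Lcp2 and Lat were at 10.65 ± 0.087 and 10.03 ± 0.12, and Lat is also in the list of T cell markers. The phospholipase gene Plcg2 was at 9.27 ± 0.19, Inpp5d, which encodes the inhibitory phosphatase SHIP-1, at 9.16 ± 0.21 and the kinase gene Zap70 at 8.94 ± 0.13. Ptpn6 and Syk are named outside the rule for named genes, after their values were seen. Ptpn6, which encodes SHP-1, the phosphatase recruited by inhibitory receptors such as NKR-P1B, was at 8.96, 8.71, 8.96 and 8.51 and was called. The kinase gene Syk was at 7.74, 6.35, 7.90 and 6.30, high on arrays 1 and 3, where B cell markers were also high, and was not called on arrays 2 and 4 alone. These genes serve many receptors, so their levels are not particular to NKR-P1.

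Because Klrb1 receptors are known from NK cells, markers of NK cells and ILC1 were set beside them. Of 17 measured markers 9 were called, 52.9% beside 46.2% of all named genes, and the mean of the list was 6.63, 6.85, 6.63 and 6.42 on arrays 1 to 4. Il2rb, a chain of the IL-2 and IL-15 receptor, was at 10.48 ± 0.12, the chemokine gene Ccl5 at 9.81 ± 0.83 and Cd160 at 8.37 ± 0.26. Xcl1 was at 8.06 ± 0.58, Nkg7, a granule protein gene, at 7.87 ± 0.75, and Tbx21, which encodes T-bet, at 6.52 ± 0.31. Ncr1, which encodes NKp46 and is found on some ILC3 as well, was at 8.39, 7.83, 7.23 and 7.18, higher on arrays 1 and 2.

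Prf1, which encodes perforin, was called at 6.41 ± 0.070. Of the 8 markers not called, Eomes, which encodes a transcription factor of NK cells, was at 4.80 ± 0.083 and Klra8, which encodes Ly49H, at 4.05 ± 0.17. Prf1 and Klra8 are named outside the rule, after their values were seen. Itga2 at 5.63 ± 0.26 and Il12rb2 at 5.01 ± 0.10 were not called, nor was Gzma, which encodes a granzyme and was at 5.19, 7.89, 5.41 and 5.94, although it was called without array 1. Over the arrays Klrb1c spanned 0.11 log2 units, while the 17 markers spanned from 0.15 (Prf1) to 2.70 (Gzma). Whether NK cells or ILC1 contributed to the level of Klrb1c, Klrb1a or the other receptor genes was not tested.

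**Figure D3:**
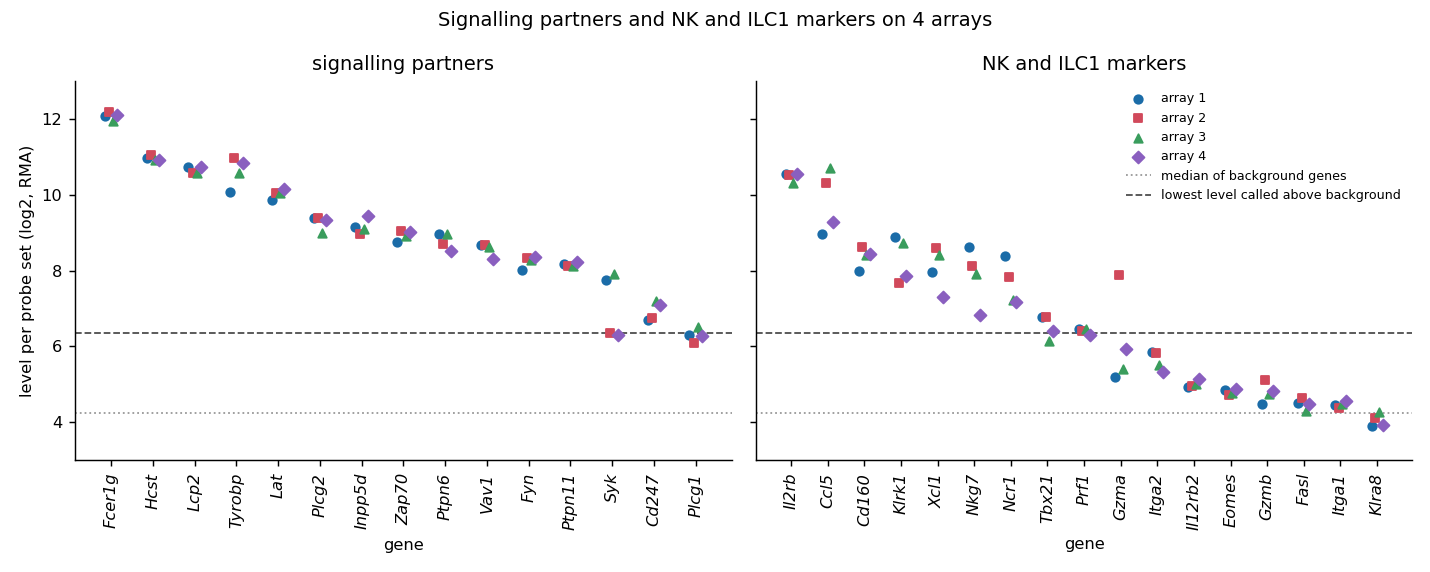
Log2 level per probe set (y axis) on the 4 arrays (symbols) of the signalling partners (left) and of the NK and ILC1 markers (right), each ordered by mean; dotted and dashed lines are the background median (4.25) and the lowest mean called (6.37). Of the partners 14 of 15 lie above the dashed line by mean, while the markers run from Il2rb at 10.48 to Klra8 at 4.05.

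Other cells of a lymph node also carry some of these genes, and Clec2d in particular is widely found on blood cells. All 13 measured ILC3 markers were called, 100% beside 46.2% of all named genes, among them Il7r at 12.56 ± 0.057, Id2 at 11.54 ± 0.12 and Thy1 at 11.36 ± 0.15, and the mean of this list ranged over the arrays from 10.34 to 10.47. Of 11 B cell markers 10 were called (90.9%), and their mean was 8.81, 7.93, 8.94 and 7.93 on arrays 1 to 4, so that arrays 1 and 3 were high. T cell markers were called in 11 of 13 cases (84.6%), with means between 7.43 and 7.69, and Cd3e was at 8.91 ± 0.22. Of 12 dendritic cell markers 6 were called, a share of 50% close to the 46.2% of all named genes, and of 10 monocyte and macrophage markers 2 (20%). Klrb1, which was not called, was highest on array 3 and next on array 1, as the B cell list was. On array 3, where that list was highest, Klrb1b, Klrb1f and Clec2d had their lowest values, and on array 1, where it was second highest, Klrb1b, Klrb1f, Clec2d and Klrb1a had their highest. Klrb1c and Clec2i were highest on array 2. On arrays 2 and 4 alone, where the B cell mean was still 7.93 on each, Klrb1b was at 12.08, Klrb1f at 11.27, Clec2d at 10.96 and Clec2i at 10.28, and the same 6 genes were called. The part of B, T or dendritic cells in these levels was not tested.

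**Figure D4:**
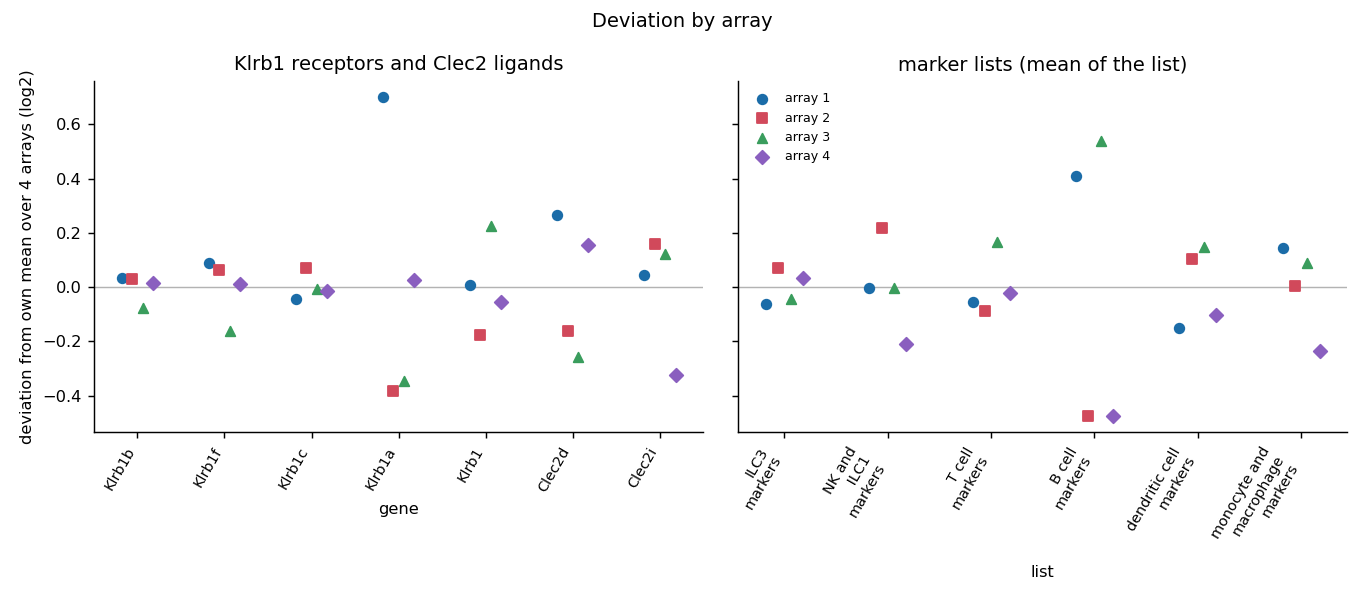
Deviation of each array (symbols) from the mean over the 4 arrays, in log2 units (y axis), for the 7 receptor and ligand genes (left) and for the mean of 6 marker lists (right). Klrb1a on array 1 lies 0.70 above its mean, and the B cell list lies 0.54 above its mean on array 3 and 0.48 below it on array 4.

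The spread between arrays was not used to choose the genes and differed widely among them. Genes above background had a median SD of 0.168 log2 units. Each SD was placed among genes above background of similar level, after these had been split by mean into 20 classes of 460 or 461 genes. Klrb1c had a larger SD than 4.78% of its class, Klrb1b than 24.1% and Klrb1f than 57.9%. Clec2i, Clec2d and Klrb1a varied more, with a larger SD than 88.1%, 90.9% and 93.7% of their classes. The inhibitory receptor gene Klrb1b varied less than most genes of its class, while the gene of its ligand, Clec2d, varied more than most. A class spans a range of levels, and the means were 12.05 for Klrb1b and 10.96 for Clec2d. The part of level in this contrast was not tested. These placements rest on 4 arrays, and the placement was repeated without each array, a check chosen after seeing the data. Without array 3 the SD was 0.0085 for Klrb1b and 0.040 for Klrb1f, larger than 2.49% and 21.9% of their classes. These were their lowest shares, and the highest were 35.2% and 69.9%, both without array 4. Without array 4 the SD of Clec2i was 0.059, larger than 31.2% of its class, and without array 1 that of Klrb1a was larger than 64.4% of its class. The highest shares were 92.1% for Clec2i, without array 1, and 96.9% for Klrb1a, without array 4. For Klrb1c the share ran from 2.30% without array 2, where its SD was 0.020, to 12.6% without array 4, with 12.2% without array 3. For Clec2d it stayed between 86.6% and 94.5%.

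**Figure D5:**
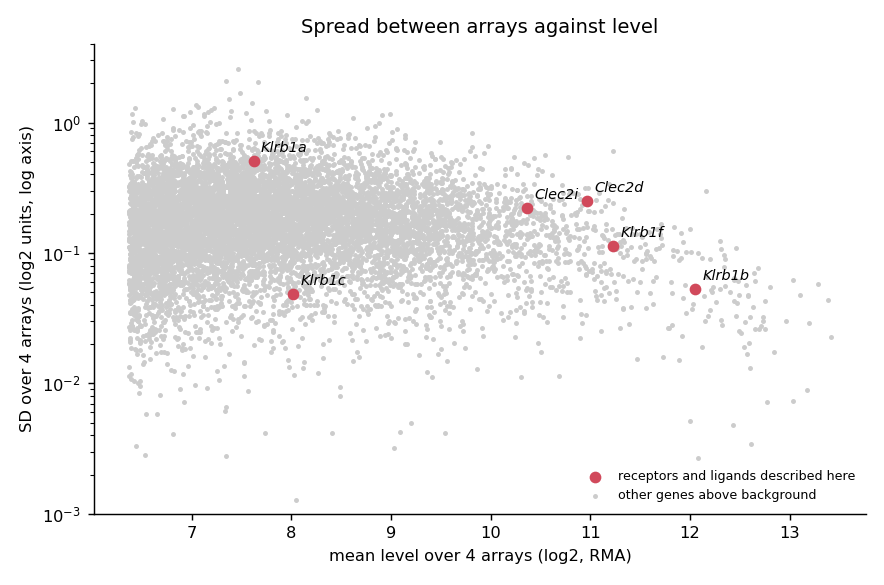
SD over the 4 arrays (y axis, log2 units on a log axis) against the mean level (x axis) for genes above background, with 6 receptor and ligand genes in red; genes with an SD below the axis are not drawn. Klrb1c (0.049) lies low and Klrb1a (0.50) high among genes of like level.

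Genes with the most similar profile were found by the root mean square difference over the 4 arrays, after each gene was centred on its own mean, among genes above background with at least 0.5 of the SD of the receptor or ligand gene. For Klrb1b they were Col13a1, Chpf and Lrrc75b, at differences of 0.0034, 0.0038 and 0.0041 log2 units. For Klrb1f they were Ino80d, Tmem191c and Mfn1, at 0.0049, 0.011 and 0.013. For Klrb1c they were Ipo8, Nrn1l and Ptpru, and for Klrb1a Gsta3, Lrrc57 and Zfp748, at differences from 0.0078 to 0.0095 and from 0.059 to 0.069. For Clec2d they were Rgp1, Auh and Gpc1, from 0.018 to 0.020, and for Clec2i Kcnj13, Ankzf1 and Vapa, from 0.013 to 0.021. With 4 arrays of 1 cell type many genes come this close. Of 8988 genes compared with Klrb1b, 149 differed by no more than 0.5 of its SD, and of 6562 compared with Clec2i, 470 did. None of the 6 genes had another of them among its 3 closest.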

How the data were processed

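RNA of 4 samples of sorted CCR6+ ILC3 was measured on arrays. The authors deposited a log2 level for each probe set, computed with RMA (background correction, normalization between arrays, summary of probes) per the submitters' processing notes; the version, software and build are not given in the sources here. Signal over background and the number of arrays limit the precision. Of genes above background, 10.9% had equal values on at least 2 arrays, which can make an SD too small; all receptor and ligand genes had 4 distinct values.

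GEO's platform annotation named 21789 of 35556 probe sets with 1 gene, 1621 with several (left unnamed) and 12146 with none. Symbols were updated through Entrez identifiers, which the RefSeq table of GRCm38.p6 held for 21698 of the 21789 probe sets named with 1 gene. The probe set with the highest mean stood for a gene. The detection p was (1 + the number of background genes whose mean was no lower) / (1 + 1241), one-sided, Benjamini-Hochberg adjusted over 19938 genes. It called 9203 genes, 27 of them background genes. No groups were compared. p-values of limma (version 3.58.1), an alternative, reflect just the differences among these 4 samples, possibly technical ones.

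The genes, lists and tests were chosen with earlier results of these data known. The text names all 7 genes, all measured genes of both families, up to 8 called and 4 uncalled genes with the highest means from the NK complex, partner and NK marker lists, up to 3 and 2 from other lists, the 3 most similar genes for each called gene, and neighbours. The detection test and limma's test were checked on simulated data, and the other calculations were not.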

Additional observations from a re-analysis of the deposited data

Results flagged for a closer look

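For 61 genes named by rule, the gap between the highest or lowest array and the nearest other was set against the range of the 4 arrays, and 7 genes exceeded Dixon's critical share for 4 values. Chance alone flags about 1 in 20 genes. Klrb1b was low on array 3 at 11.97, a gap of 0.85 of a range of only 0.11 log2 units. The median of all probe sets was lowest on that array as well. Array 3 was also the low array for Plcg2, at 8.995, and Il2rb, at 10.31, and the high array for Cd3g, at 9.51, and Adgre1, at 7.003. Clec2g was high on array 1 at 5.17 and Clec2m on array 2 at 5.06, both within background.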

How the results depend on the processing

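No paired analysis was possible because all 4 samples belong to 1 group. The 6 counts of genes above background were recomputed under 10 alternatives. The levels and SDs of the 7 receptor and ligand genes were recomputed under 7 of these, which alter the values or arrays used. Averaging all probe sets of a gene could change neither, since each of the 7 genes had 1 probe set. Centring arrays on their medians keeps the mean level and can change just the SD. Arrays 2 and 4 alone was chosen after seeing the data. Of 60 counts 58 stayed within 1.5 times of the count reported above. The 2 others were the count of further Clec2 and Klrb1 genes, which was 1 in place of 0 (Clec2h) with limma and with a call above the 95th background percentile on each array. All 49 levels stayed within 1 SD of the level reported. This outcome was fixed in advance, since leaving out arrays in these ways cannot shift a mean of 4 values by 1 SD. Nothing is read from it. Of 49 SDs 11 moved by more than 1.5 times, 6 on leaving out 1 array. Leaving out each array in turn gave SDs of 0.094 to 0.21 for Klrb1, 0.23 to 0.62 for Klrb1a, 0.0085 to 0.063 for Klrb1b, 0.020 to 0.059 for Klrb1c, 0.040 to 0.14 for Klrb1f and 0.059 to 0.27 for Clec2i. On arrays 2 and 4 alone the SD was 0.086 for Klrb1, 0.29 for Klrb1a, 0.0093 for Klrb1b, 0.037 for Klrb1f and 0.34 for Clec2i. With arrays centred on their medians the SD of Klrb1b was 0.036, larger than 11.1% of its class. The count of the 7 receptor and ligand genes above background was 6 under all 10 alternatives. Leaving out each array in turn gave 14 to 15 signalling partners, 8 to 10 NK and ILC1 markers, 3 further lectin genes of the NK complex and 8835 to 9570 named genes. Prf1 and Tbx21 were not called with olfactory receptors alone as background, and Prf1 was not called without array 3 or on arrays 2 and 4 alone. Plcg1 was called without array 2, by limma and by the 95th percentile. The cause of these changes was not tested. The background correction was not varied, as it needs scanner files, which were not used here.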
